A study of Homo sapiens with 12 samples.

Results

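The protein-coding interleukin and chemokine genes were examined in TIGK cells, human keratinocytes of the gingiva that were made immortal with telomerase (hTERT). Members were chosen by name from the raw count table, as genes with the biotype protein_coding whose whole symbol is CXCL or CCL plus a number, CX3CL1, or IL plus a number with at most a final letter from A to F, together with IL1RN, IL36RN, and IL1F10. This gave 80 of the 58735 genes in the table, and the 16 with 10 or more counts in at least 3 of the 12 libraries were described. IL36G and receptors such as IL6R were not matched by the rule. Of the 64 members not described, 34 had 0 counts in every library, 13 had 1 to 9 counts in all, and 17 had 10 or more counts in all. IL16 lay just inside the limit, with 10 or more counts in 3 libraries, and IL23A, CCL20, and IL32 lay just outside it, with 10 or more counts in 2 libraries each. IL17D reached 10 counts in 6 libraries, all of them treated with Arg, so it was described because of the groups in which it was higher. IL11 reached 10 counts in 7 libraries, all 6 control libraries and 1 treated with Arg, so it too was described through the groups in which it was higher.

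The study compared cells given 500 μM L-Arginine (Arg) for 24 or 48 h with untreated cells (control) kept without L-Arginine for the same time, to examine how Arg changes the transcripts of keratinocytes in high glucose. All 4 groups were kept at 48 mM glucose in a base medium without Arg, to which L-lysine, L-Glutamine, hydrocortisone, TGF-α, insulin, epinephrine, and apo-transferrin had been added along with pituitary extract. Each group had 3 libraries, named A, B, and C, from wells of 6-well plates. Nothing states that the wells came from separate cultures of this single line, so the p-values measure the spread between these libraries, which may be technical. The libraries held 16542243 to 19040964 counts, and 3 counts, taken here as the lower limit of detection, corresponded to 0.155 to 0.178 CPM (counts scaled to a library of 1000000, after TMM scaling of the library sizes). The 10 keratinocyte markers were all present, with a summed level of 43327 to 55949 CPM. The 13 leukocyte markers summed to 7.0 to 26.7 CPM, most of it from CSF1R. PTPRC had 28 counts and CD3D 1 count over all libraries, and MS4A1, FCGR3A, and CD1A had 0. Control library B at 48 h stood apart from the other libraries of its group, with a chi-square per degree of freedom of 20.9 and 23.9 against libraries A and C, where A and C gave 3.66 against each other. Mitochondrial transcripts took 1.55% of its counts, against 0.906% and 0.707%. The 24 h groups were not uniform either. Control B at 24 h gave 12.3 and 12.5 against A and C, where A and C gave 6.54. Arg A at 24 h gave 12.4 and 10.9 against B and C, where B and C gave 5.41.

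Interleukins and chemokines are secreted signals by which epithelial cells call and instruct immune cells. Keratinocytes store the IL-1 family cytokines IL-1α and IL-18 inside the cell, and caspase-1 cleaves pro-IL-18 and pro-IL-1β into their active forms. The receptor antagonists encoded by IL1RN and IL36RN occupy the IL-1 and IL-36 receptors without signalling. Chemokines bind G protein-coupled receptors on leukocytes, and those with the ELR motif, such as CXCL1, CXCL2, and CXCL8, draw neutrophils into the gingiva.

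The described members were mostly of the IL-1 family and the CXC chemokines. Among IL-1 family agonists, 3 of 6 were described (IL1A, IL1B, and IL18), and among IL-1 family inhibitors 2 of 4 (IL1RN and IL36RN). The ELR chemokines gave 3 of 6 (CXCL1, CXCL2, and CXCL8), the other CXC and CX3C chemokines 2 of 9 (CXCL14 and CXCL16), and the CC chemokines 2 of 24 (CCL5 and CCL28). IL11 and IL12A were described of 7 members of the IL-6 and IL-12 family, IL17D of 6 members of the IL-17 family, and IL16 of 3 others named interleukin. None of the 6 members of the IL-10 and IL-20 family and none of the 9 γ-chain and related cytokines reached the limit.

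Together, the 16 members took 0.0179% to 0.0507% of the counts of a library. IL18 and CXCL14 supplied 61.1% to 81.7% of the members' counts. Levels between genes were compared as CPM per kb of exonic length, averaged over the 12 libraries. On this scale the highest level was that of IL18, at 47.4 CPM per kb. CXCL14, a chemokine made constitutively by epithelia, followed at 44.2 CPM per kb, and the ranges of both overlapped, since CXCL14 varied widely between libraries. By group, CXCL14 lay below IL18 at 24 h (17.6 against 44.1 CPM per kb in the control and 17.9 against 36.7 with Arg). At 48 h its mean was the higher one (69.0 ± 55.6 against 57.7 ± 3.503 CPM per kb in the control and 72.3 ± 32.5 against 51.2 ± 3.14 with Arg; SD, n = 3), within the spread of CXCL14. CXCL16, a chemokine with a transmembrane stalk, had a level of 8.90 CPM per kb, IL1RN of 5.65, IL36RN of 3.38, and CCL5, a T cell attractant, of 2.23. Next came IL1A at 2.12 CPM per kb, CCL28, a chemokine of mucosal epithelia, at 1.73, and CXCL8, which encodes interleukin-8, at 1.13. Of the remaining members, IL12A, CXCL2, CXCL1, and IL1B lay between 0.565 and 0.731 CPM per kb, and IL11, IL17D, and IL16 between 0.0268 and 0.272. CXCL1 and CXCL2 are close paralogs, and how the counting treated reads that they share is not stated.

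**Figure D1:**
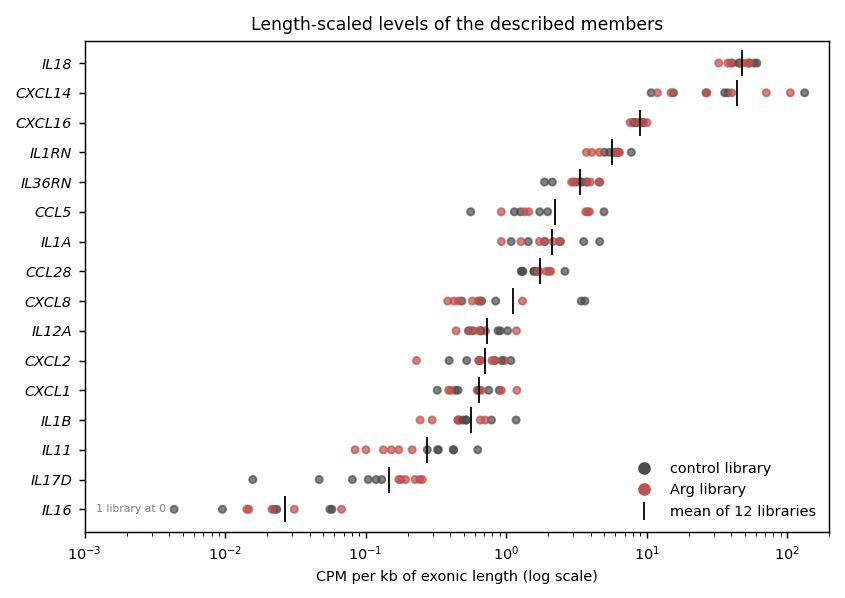
Length-scaled levels of the 16 described members, in CPM per kb of exonic length on a log axis. Points are libraries with a value above 0 (gray for control, red for Arg), and the bar is the mean of all 12 libraries. Arg library A at 24 h had 0 counts of IL16, so it has no point and is marked as text. IL18 (mean 47.4) and CXCL14 (mean 44.2) had the highest means, and CXCL14 covered a far wider range than IL18.

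Before the comparisons, 2 groups of neighbouring members can be placed on GRCh38. On chromosome 2, IL1A (112773915 to 112784590, minus strand), IL1B (112829751 to 112836903, minus strand), IL36RN (113058638 to 113065382, plus strand), and IL1RN (113107214 to 113134016, plus strand) lay within 360.1 kb. On chromosome 4, CXCL8 (73740506 to 73743716, plus strand), CXCL1 (73869393 to 73871242, plus strand), and CXCL2 (74097035 to 74099293, minus strand) lay within 358.8 kb. IL18 was on chromosome 11 (112143251 to 112164117, minus strand), CXCL14 on chromosome 5 (135570679 to 135579279, minus strand), CCL5 on chromosome 17 (35871491 to 35880793, minus strand), and IL11 on chromosome 19 (55364389 to 55370463, minus strand). Exons of 5 members overlapped a gene on the opposite strand that had more than a single count, and the strand setting of the counting is not stated. These were CXCL14 (SLC25A48, 82 counts in all libraries against 19344 for CXCL14), CXCL16 (MED11, 1705 against 5405), IL12A (IL12A-AS1, 69 against 324), IL17D (AL161772.1, 67 against 105), and IL16 (STARD5, 316 against 71). The values of CXCL16, IL12A, IL17D, and IL16 are therefore uncertain.

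Arg and control libraries were first compared at 24 h, with edgeR's quasi-likelihood test and p-values adjusted by the Benjamini–Hochberg method over the 14279 genes tested. Of the 15 members tested, 3 fell with Arg at an adjusted p under 0.05, IL1A, CXCL8, and IL11, and none rose. IL11 is counted here although it was described through its control libraries. Over all genes tested, 3.84% were lower and 2.79% higher at this threshold. At an unadjusted p under 0.05, 6 members were lower (IL1A, IL1B, IL18, IL1RN, CXCL8, and IL11) and 0 higher, where 11.9% and 10.8% of all genes were. DESeq2 called 2 members lower, IL1A and IL11, and 0 higher. The shares of all genes that DESeq2 called, here and in the later comparisons, are not given. The median log2 fold change was -0.26 over the 15 members and 0.003 over all genes. The members' values in each library are shown in the plot of CPM by group, and a lower value of a transcript in bulk RNA cannot tell fewer cells that make it from less RNA per cell.

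IL1A, the gene of the alarmin IL-1α, was at 7.58, 4.01, and 9.84 CPM in control libraries A, B, and C at 24 h and at 1.96, 3.67, and 3.97 CPM in the Arg libraries. All 3 Arg libraries lay below all 3 control libraries, with control B the lowest of its group and close to Arg C. IL1A fell by 1.16 on the log2 scale (SE 0.304, adjusted p = 0.0295, edgeR), a level 0.449 times that of the control. The adjusted p from edgeR rose to 0.108 without control A, 0.161 without control C, 0.0917 without Arg A, and 0.0864 without Arg B, while the log2 fold change stayed between -1.44 and -0.86.

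CXCL8 was at 7.79, 1.52, and 8.28 CPM in the control and at 2.98, 0.873, and 0.967 CPM in the Arg libraries. Control B had a CXCL8 level below that of Arg A, so the groups overlapped, and control A and C were far above the rest. CXCL8 fell by 1.87 on the log2 scale (SE 0.500, adjusted p = 0.0320, edgeR). Leaving out control B gave a fall by 2.32 (adjusted p = 0.000197, edgeR) and leaving out Arg A a fall by 2.67 (adjusted p = 0.0141, edgeR). The call was lost without control A, control C, Arg B, or Arg C (adjusted p of 0.153, 0.126, 0.165, and 0.125, edgeR) and with DESeq2 (adjusted p = 0.180).

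IL11, a cytokine of the IL-6 family that signals through gp130, was at 1.68, 1.13, and 0.868 CPM in the control and at 0.225, 0.407, and 0.268 CPM in the Arg libraries. These are low levels, of 15 to 31 counts in a control library and 4 to 7 counts in an Arg library, and the groups did not overlap. IL11 fell by 2.01 on the log2 scale (SE 0.519, adjusted p = 0.0265, edgeR), and all 7 alternatives that kept every library called it. IL11 was described through its control libraries, so these calls do not stand apart from that choice. It lost the call without control A (adjusted p = 0.170, edgeR) and without Arg A, B, or C (adjusted p of 0.0726, 0.0772, and 0.116, edgeR).

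**Figure D2:**
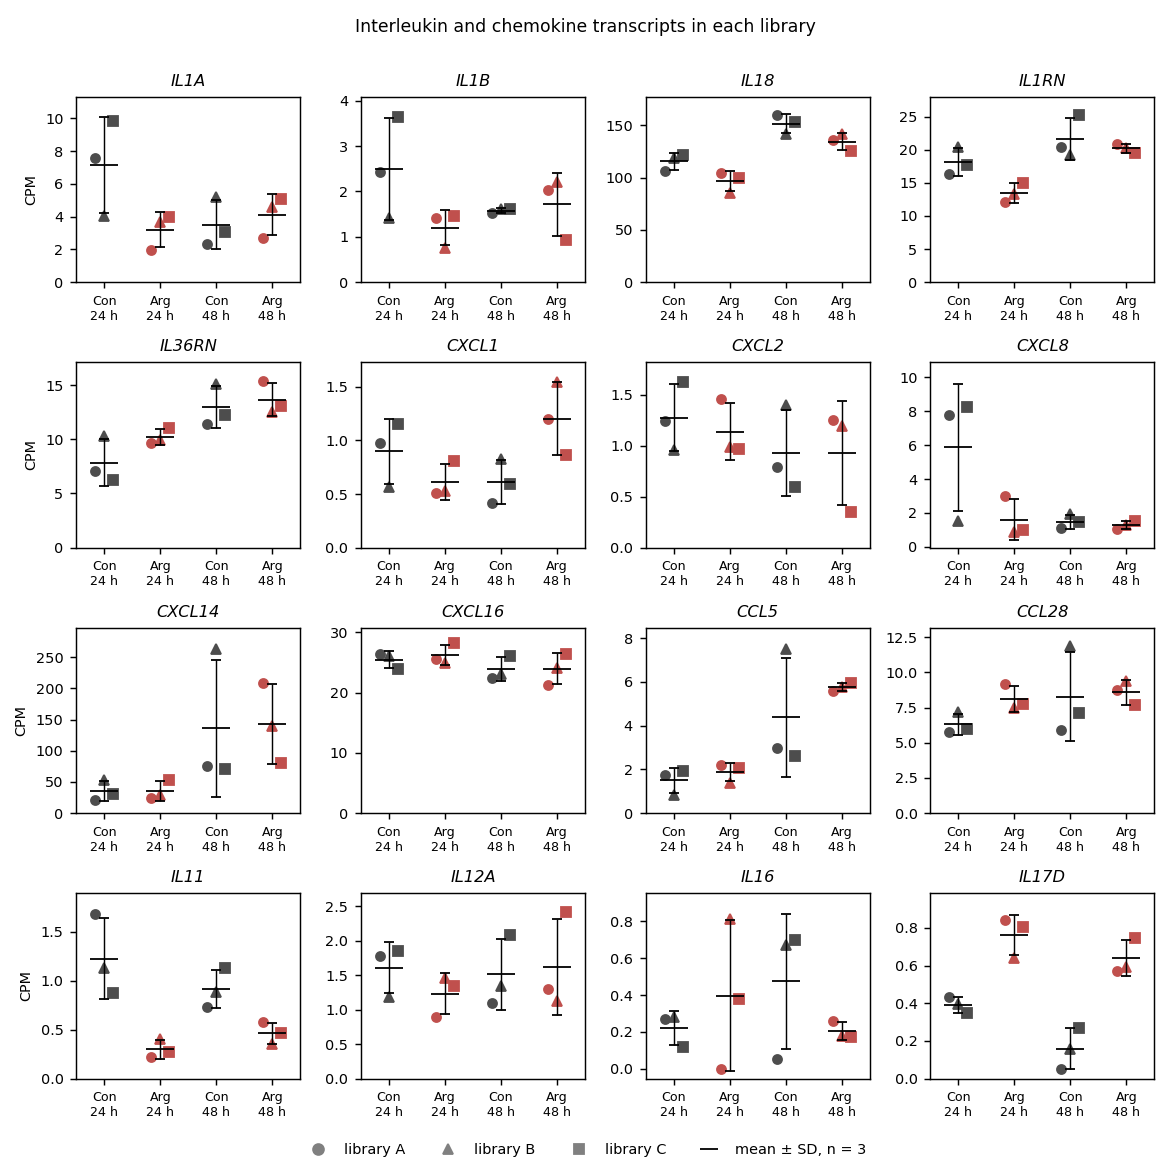
TMM-scaled CPM of the 16 members in each of the 12 libraries (circle, library A; triangle, B; square, C; gray, control; red, Arg), with the mean and SD of each group of 3; each panel has its own linear axis. At 24 h, the Arg libraries all lay below the control libraries for IL1A and IL11, and control B at 48 h was the highest library for CXCL14 (263 CPM) and CCL5 (7.51 CPM).

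The sequence before the start of the 3 genes that fell is shown because these were the members called at 24 h. The 150 bases upstream of a RefSeq start (GRCh38.p14) are given on the gene's strand. The capitals mark TGACTCA (the AP-1 site, or TGAGTCA where it is read on the other strand), GGNNTTTCC (a form of the NF-κB site), and TATAAA.
CXCL8: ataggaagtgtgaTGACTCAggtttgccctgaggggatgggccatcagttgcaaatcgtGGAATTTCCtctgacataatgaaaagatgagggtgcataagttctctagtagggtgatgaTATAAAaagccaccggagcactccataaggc
IL1A: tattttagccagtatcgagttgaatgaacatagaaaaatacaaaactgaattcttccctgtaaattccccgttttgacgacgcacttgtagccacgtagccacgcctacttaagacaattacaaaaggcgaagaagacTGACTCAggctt
IL11: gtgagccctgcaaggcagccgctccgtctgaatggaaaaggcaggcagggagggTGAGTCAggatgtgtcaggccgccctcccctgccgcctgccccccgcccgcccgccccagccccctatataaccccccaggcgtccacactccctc

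These stretches are chr4:73740419-73740568 (CXCL8, plus strand), chr2:112784494-112784643 (IL1A, minus strand), and chr19:55370464-55370613 (IL11, minus strand). Each of them held TGACTCA on either strand, first base at position -137 in CXCL8, -12 in IL1A, and -96 in IL11 from the start used. For IL1A another RefSeq start lies at 112784400, from which these letters are at -105 and -55. The stretches of CXCL8 and IL1A partly overlap the gene positions given above, which begin upstream of the start used. RefSeq windows of 250 bases before to 50 after a start were at hand for 13 of the 16 members, 22 windows in all. The AP-1 letters were found in 6 of these 22 windows, of 5 members (CXCL8, CXCL14, IL11, IL1A, and IL1RN), and in 4.96% of all 34796 windows. GGNNTTTCC, searched on both strands, was found in 6 of the 22 windows, of 5 members (CXCL1, CXCL2, CXCL8, IL17D, and IL1RN), and in 6.24% of all windows. TATAAA, searched on the gene's strand only, was found in 3 of the 22 windows, of 3 members (CXCL8, IL1A, and IL1RN), and in 7.37% of all windows. Some windows of a gene overlap, so a site can be counted more than once. The IL1A windows hold the same AP-1 sites, and the IL1RN windows with GGNNTTTCC share that site. The motifs do not overlap one another in the stretches shown. Other members that hold the same letters did not pass the test at 24 h. CXCL14 and IL1RN, with the AP-1 letters, had log2 fold changes of 0.028 and -0.43 (adjusted p of 0.964 and 0.0707, edgeR), and CXCL1 and CXCL2, with the GGNNTTTCC letters, of -0.55 and -0.16. A match of letters describes the window and not the binding of a factor.

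The remaining IL-1 family members did not pass the adjusted threshold at 24 h. IL18 was at 107, 119, and 122 CPM in the control and at 105, 85.7, and 99.3 CPM in the Arg libraries, without overlap (log2 fold change -0.26, SE 0.092, adjusted p = 0.0953, edgeR). IL1RN was at 16.3, 20.4, and 17.7 CPM in the control and at 12.1, 13.3, and 15.0 CPM with Arg, again without overlap (-0.43, SE 0.138, adjusted p = 0.0707, edgeR). IL1B had a log2 fold change of -1.04 (SE 0.403, adjusted p = 0.130, edgeR), with overlapping groups. It passed only without control B (-1.33, adjusted p = 0.0326, edgeR). IL18 passed only without Arg A (-0.33, adjusted p = 0.0484, edgeR). Within a library, the ratio of IL1RN to IL1A in CPM per kb was 1.17 to 3.33 in the control and 2.36 to 4.03 with Arg at 24 h. IL36RN was at 7.04, 10.3, and 6.19 CPM in the control and at 9.66, 9.95, and 11.01 CPM with Arg (0.38, SE 0.188, adjusted p = 0.243, edgeR), and passed without control B (0.62, adjusted p = 0.0366, edgeR).

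Among the chemokines, CXCL14, CXCL16, CCL5, and CCL28 had log2 fold changes between 0.028 and 0.36 at 24 h, with adjusted p between 0.243 and 0.964 in edgeR. CXCL16 was at 26.4, 26.1, and 23.9 CPM in the control and at 25.5, 24.9, and 28.1 CPM with Arg, a difference smaller than the spread of either group. The Arg libraries all lay above the control libraries for CCL28 (5.79 to 7.17 CPM against 7.45 to 9.15 CPM). IL17D, a cytokine of the IL-17 family, was at 6 to 8 counts in the control libraries and 11 to 15 counts with Arg (log2 fold change 0.95, SE 0.505, adjusted p = 0.278, edgeR). Its antisense neighbour AL161772.1 had 19 counts in the control and 22 with Arg. In all, 6 of the 15 members tested had groups that did not overlap at 24 h, 2 above and 4 below, where 26.2% of all genes did. These include IL17D above and IL11 below, each described through the groups in which it was higher. Other measures also differed between the Arg and control groups at 24 h. Mitochondrial transcripts took 1.20% to 1.30% of the counts of the control libraries and 0.624% to 0.802% of those of the Arg libraries, and the leukocyte markers summed to 7.0 to 9.31 CPM in the control and 11.9 to 14.3 CPM with Arg. Their part in the changes of IL1A, CXCL8, and IL11 was not tested.

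At 48 h, no member passed an adjusted p under 0.05 between Arg and control in edgeR, of 15 tested among 14562 genes, and DESeq2 called 0 as well. Over all genes, edgeR called 0% higher and 0.117% lower. At an unadjusted p under 0.05, edgeR gave IL17D higher and IL18 lower, where 5.94% and 7.49% of all genes were higher and lower. The median log2 fold change was 0.065 over the members and 0.002 over all genes. The groups did not overlap for 3 members (CXCL1 and IL17D above, IL11 below), where 17.1% of all genes had no overlap. IL17D and IL11 are counted in these numbers, although both were described through the groups in which they were higher. The 3 members that had fallen at 24 h gave values of 0.22 (SE 0.326) for IL1A, -0.22 (SE 0.376) for CXCL8, and -0.96 (SE 0.465, adjusted p = 0.393, edgeR) for IL11. IL11 had 14 to 21 counts in the control libraries and 6 to 11 counts in the Arg libraries. IL17D had 1 to 5 counts in the control and 10 to 13 counts with Arg (1.97, SE 0.629, adjusted p = 0.222, edgeR), while AL161772.1 had 14 counts in the control and 12 with Arg. CXCL1 had 8 to 16 counts in the control and 15 to 26 counts with Arg (0.96, SE 0.450, adjusted p = 0.380, edgeR).

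The comparison at 48 h depended on control library B. CXCL14 was at 74.9, 263, and 71.0 CPM in control libraries A, B, and C and at 208, 140, and 79.8 CPM in the Arg libraries, so control B was the highest of all 6 and the groups overlapped (log2 fold change 0.065, SE 0.433). CCL5 was at 2.99, 7.51, and 2.62 CPM in the control and at 5.57, 5.77, and 5.92 CPM with Arg, with the same library above all others (0.39, SE 0.334). Both were lower in control A and C than in any Arg library. Without control B, CXCL14 was higher with Arg by 0.97 (adjusted p = 0.00215, edgeR) and CCL5 by 1.03 (adjusted p = 0.00365, edgeR), and IL18 fell by 0.22 (adjusted p = 0.0209, edgeR). The share of all genes called without control B is not given here. With any other library left out, none of these 3 passed, and CXCL14 lay between -0.32 and 0.36. IL18 itself was at 159.9, 142, and 153 CPM in the control and at 136, 142, and 126 CPM with Arg. The other higher members differed little at 48 h: CXCL16 was at 22.5, 23.1, and 26.1 CPM in the control and 21.3, 24.1, and 26.5 CPM with Arg, IL1RN at 20.5, 19.2, and 25.3 CPM and 20.9, 20.3, and 19.6 CPM, and IL36RN at 11.4, 15.1, and 12.3 CPM and 15.4, 12.5, and 13.1 CPM.

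**Figure D3:**
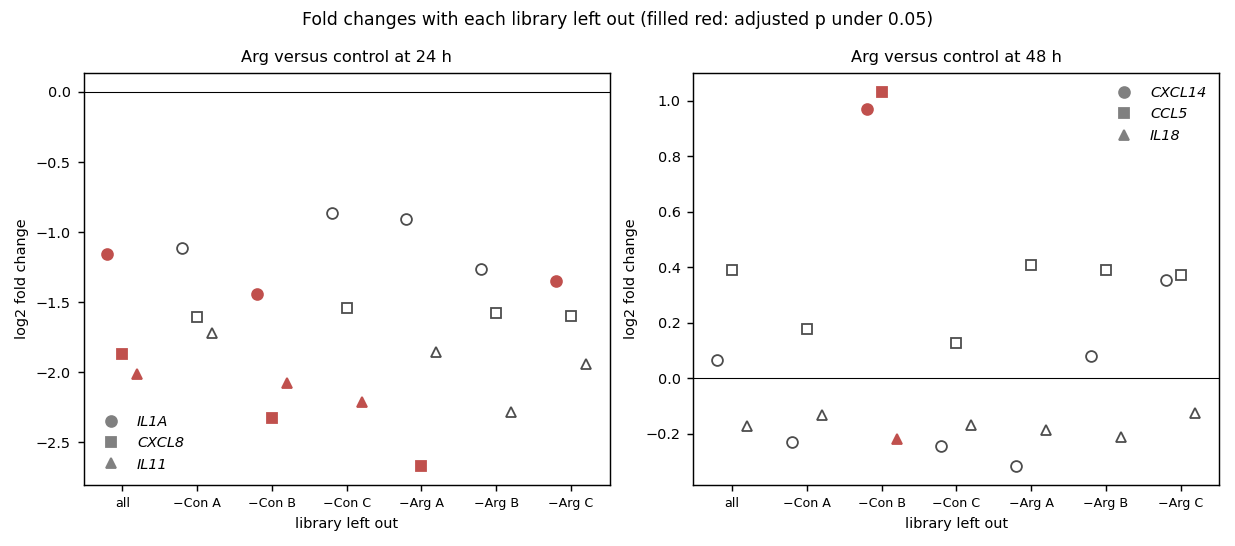
Log2 fold change of Arg against control with all libraries and with each library left out in turn, for IL1A, CXCL8, and IL11 at 24 h (left) and for CXCL14, CCL5, and IL18 at 48 h (right); filled red symbols have an adjusted p under 0.05. At 24 h all values stayed below 0 while calls came and went, and at 48 h only the fit without control B gave calls, at 0.97 for CXCL14, 1.03 for CCL5, and -0.22 for IL18.

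The difference between the effects at the 2 times was tested with an interaction term, in a fit to all 12 libraries. Of the 16 members, 0 passed an adjusted p under 0.05 in edgeR, where 0.0132% of the 15148 genes did. DESeq2 called 0 and gave no adjusted p for some members, IL1A, CXCL8, and IL11 among them. At an unadjusted p under 0.05 edgeR gave 3 members, IL1A (1.38, SE 0.489, adjusted p = 0.606), CXCL8 (1.65, SE 0.736, adjusted p = 0.708), and CXCL1 (1.51, SE 0.668, adjusted p = 0.708), against 6.87% of all genes. The effect of Arg on IL1A, CXCL8, and IL11 was therefore not shown to differ between 24 and 48 h. Without both control B libraries, IL1A passed (2.06, adjusted p = 0.0127, edgeR), and CXCL8 had a value of 2.34 (adjusted p = 0.0548, edgeR). This choice was made after seeing the data.

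The members were then compared between 48 and 24 h within each treatment. These comparisons share libraries with those above. In the control, 4 of 14 members tested rose (IL18, CXCL14, CCL5, and IL36RN) and 1 fell (CXCL8), where 9.9% of the 14449 genes rose and 10% fell. In the Arg groups, 5 of 14 rose (the same 4 and IL1RN) and 0 fell, where 14.3% of the 14398 genes rose and 14% fell. At an unadjusted p under 0.05 edgeR gave 0 lower members in the Arg groups, against 19.2% of all genes, and DESeq2 also called 0. The groups did not overlap for 4 members in the control and 6 in the Arg groups, all of them above, where 39% and 42.2% of all genes had no overlap. The members without overlap are thus near or below these shares. Of all genes tested, 2775 of 14449 lay above in the control and 3031 of 14398 in the Arg groups. The median log2 fold change of the members was -0.088 in the control and 0.41 in the Arg groups, against 0.012 and 0.001 over all genes.

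CXCL14 rose in both treatments. It was at 21.3, 52.3, and 30.7 CPM in the control and 23.6, 29.4, and 53.1 CPM in the Arg libraries at 24 h, all below the lowest value at 48 h, 71.0 CPM. It rose by 1.98 in the control (SE 0.454, adjusted p = 0.0119, edgeR) and by 2.01 in the Arg groups (SE 0.259, adjusted p = 1.11e-05, edgeR). In the control the rise was 1.07 without control B at 48 h (adjusted p = 0.00743, edgeR), and the call was lost without control A or C at 24 h (adjusted p of 0.0730 and 0.0679, edgeR). CCL5 was at 1.73, 0.846, and 1.91 CPM in the control and 2.19, 1.40, and 2.04 CPM in the Arg libraries at 24 h. It rose by 1.55 in the control (SE 0.437, adjusted p = 0.0285, edgeR) and by 1.61 in the Arg groups (SE 0.248, adjusted p = 7.06e-05, edgeR). In the control, the rise of CCL5 was 0.91 without control B at 48 h (adjusted p = 0.112, edgeR) and 0.62 without both control B libraries (adjusted p = 0.187, edgeR), and the call was also lost without control A, B, or C at 24 h (adjusted p of 0.0883, 0.0755, and 0.0714, edgeR). In the Arg groups, both chemokines passed with any library left out.

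IL18 rose by 0.39 in the control (SE 0.082, adjusted p = 0.00816, edgeR) and by 0.48 in the Arg groups (SE 0.081, adjusted p = 0.000188, edgeR), with a call in all but the control fit without control A at 24 h (adjusted p = 0.0575, edgeR). The antagonists rose as well. IL36RN rose by 0.72 in the control (SE 0.203, adjusted p = 0.0276, edgeR) and by 0.42 in the Arg groups (SE 0.140, adjusted p = 0.0297, edgeR). Its call in the control was lost without control A or C at 24 h or control B at 48 h (adjusted p of 0.122, 0.122, and 0.0594, edgeR), and in the Arg groups without Arg A or B at 24 h or Arg A or C at 48 h (adjusted p of 0.068, 0.0717, 0.158, and 0.0506, edgeR). IL1RN rose by 0.59 in the Arg groups (SE 0.121, adjusted p = 0.00112, edgeR), with any library left out, and had a value of 0.26 in the control (SE 0.139, adjusted p = 0.214, edgeR), but rose there by 0.43 without both control B libraries (adjusted p = 0.0112, edgeR). The difference between these 2 changes of IL1RN is the interaction, which did not pass (0.33, SE 0.183, adjusted p = 0.777, edgeR).

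CXCL8 fell by 1.97 between 24 and 48 h in the control (SE 0.503, adjusted p = 0.0188, edgeR), to 1.10, 1.92, and 1.45 CPM. In the Arg groups it was low at both times, at 1.04, 1.31, and 1.496 CPM at 48 h, and did not pass (-0.32, SE 0.459). The call in the control was lost without control A or C at 24 h or control A at 48 h (adjusted p of 0.0981, 0.0971, and 0.0620, edgeR), and without both control B libraries the fall was by 2.65 (adjusted p = 4.39e-09, edgeR). IL1A was at 2.31, 5.18, and 3.05 CPM in the control and 2.71, 4.58, and 5.06 CPM in the Arg libraries at 48 h. Its change in the control, -1.02, just missed the threshold (SE 0.346, adjusted p = 0.0576, edgeR) and passed with DESeq2 (adjusted p = 0.0151). At 24 h, the control libraries A and C thus held the highest levels of CXCL8 and of IL1A among all 12.

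Levels of markers of other cell types and the mitochondrial share also differed between the times. The leukocyte markers summed to 21.4 to 21.7 CPM in the control and 20.2 to 26.7 CPM in the Arg groups at 48 h, above all libraries at 24 h. The 8 fibroblast markers, led by DCN and COL1A1, summed to 30.3 to 54.4 CPM at 24 h and 72.7 to 103 CPM at 48 h, with 2 counts of COL1A2 in all libraries. The 4 endothelial markers summed to 0.756 to 3.01 CPM at 24 h and 4.08 to 6.41 CPM at 48 h, and the 4 melanocyte markers to 1.03 to 1.91 CPM and 1.84 to 3.05 CPM. Mitochondrial transcripts took 0.624% to 0.802% of the counts at 24 h and 1.14% to 1.31% at 48 h in the Arg groups, without overlap, and 1.20% to 1.30% and 0.707% to 1.55% in the control. Their part in the changes of CXCL14, CCL5, IL18, and the antagonists was not tested.

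**Figure D4:**
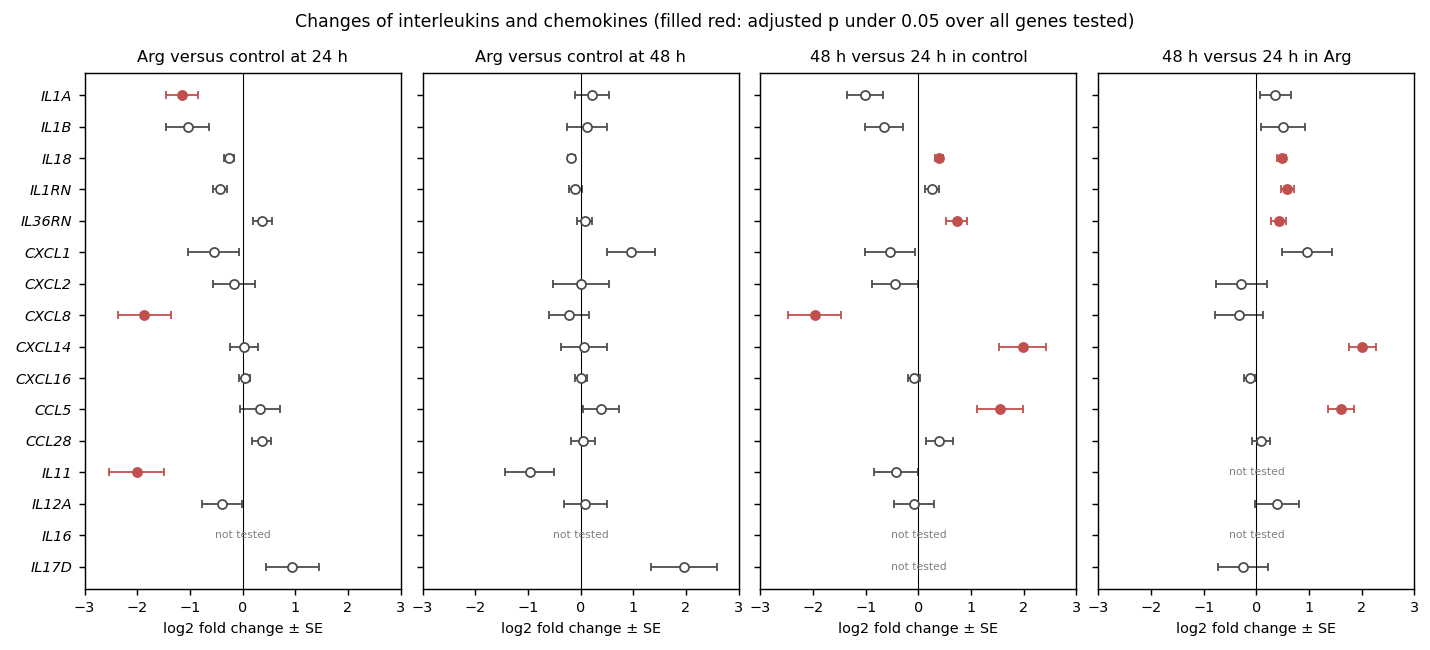
Log2 fold change and SE of each member in the 4 comparisons; filled red points have an adjusted p under 0.05 over all genes tested, open points do not, and members removed by the filter on low counts are marked as not tested. IL1A, CXCL8, and IL11 fell with Arg at 24 h, no member passed at 48 h, and CXCL14 and CCL5 rose from 24 to 48 h in both treatments. IL11 was described through its control libraries.

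IL12A, which encodes the p35 subunit of IL-12, CXCL1, CXCL2, CXCL16, CCL28, and IL1B passed in none of the 4 comparisons. IL12A stayed between 0.898 and 2.42 CPM in all libraries and CXCL2 between 0.345 and 1.62 CPM. IL16, a T cell attractant, was removed by the filter on low counts from all 4 comparisons of 2 groups. It had 0, 14, and 7 counts in the Arg libraries at 24 h and 1, 13, and 13 counts in the control libraries at 48 h, so libraries of the same group differed more than the groups did.

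Genes that receive or mature these signals were read from lists made for this purpose. The lists were chosen with earlier results of these data known, so their counts are not independent of the data. Of 58 interleukin and chemokine receptors, 27 were tested at 24 h, and with Arg 1 rose and 3 fell (median log2 fold change -0.10), where 2.79% of all genes rose and 3.84% fell. IL6R, the α receptor of IL-6, rose by 0.38 (SE 0.0998, adjusted p = 0.0288, edgeR). IL7R, the α receptor of IL-7, fell by 0.90 (SE 0.160, adjusted p = 0.00263, edgeR), also with any library left out. IL1RL1, the IL-33 receptor, had 65, 12, and 104 counts in the control and 22, 13, and 3 counts with Arg at 24 h, and fell by 2.25 (SE 0.622, adjusted p = 0.0381, edgeR). IL27RA, a receptor subunit for IL-27, fell by 0.41 (SE 0.101, adjusted p = 0.0198, edgeR). IL6R and IL1RL1 each lost the call without control A, control C, Arg B, or Arg C (adjusted p up to 0.172 and 0.227, edgeR), and IL27RA without control A, control C, or Arg C (up to 0.0900, edgeR). IL1RL1 also lost it with DESeq2 (adjusted p = 0.186) and with all 12 libraries in a single model (adjusted p = 0.0649, edgeR).

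Of 44 genes of interleukin maturation and signalling, 41 were tested at 24 h, 0 rose and 5 fell with Arg (median log2 fold change -0.074), against the same 2.79% and 3.84% of all genes. At an unadjusted p under 0.05, 2 were higher in edgeR, and DESeq2 called 0 higher. CASP1, whose product cleaves pro-IL-1β and pro-IL-18, fell by 0.59 (SE 0.113, adjusted p = 0.00458, edgeR), from 28.0 ± 1.55 to 18.7 ± 1.51 CPM (SD, n = 3). CASP4, an inflammatory caspase that senses lipopolysaccharide in the cytosol, fell by 0.67 (SE 0.114, adjusted p = 0.00207, edgeR), and both caspases passed with any library left out. GSDMC, of the pore-forming gasdermin family, fell by 0.70 (SE 0.147, adjusted p = 0.00805, edgeR), with adjusted p up to 0.0549 without control A or Arg C. STAT3 and GSDME were the other members that fell. Of 32 other cytokine genes, 14 were tested, 0 rose (0 at an unadjusted p under 0.05 in edgeR, 0 by DESeq2) and 2 fell, CMTM3 by 0.40 and CMTM6 by 0.37 (adjusted p of 0.0313 and 0.0171, edgeR), against 3.84% of all genes. Both encode membrane proteins with a MARVEL domain rather than secreted signals. Both lost the call without control A, control C, Arg B, or Arg C (adjusted p up to 0.123 and 0.0903, edgeR), and CMTM3 also with the replicate block (0.0523, edgeR).

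At 48 h, edgeR called 0 genes of these 3 lists in either direction between Arg and control. At an unadjusted p under 0.05 it gave 1 receptor higher and 3 lower, and 0 maturation and signalling genes higher and 3 lower. It gave 0 other cytokines higher and 2 lower. Over all genes, 5.94% were higher and 7.49% lower at this threshold. DESeq2 called 1 receptor lower and no other gene of the lists, and its share of all genes is not given here. Without control B, 4 receptors were higher and 3 lower at an adjusted p under 0.05 in edgeR, and 2 maturation and signalling genes were higher and 2 lower. The share of all genes called in that fit is not given here, so these counts cannot be set against it. The interaction called 0 genes in each list by either tool, with 4, 5, and 1 genes of the receptors, of maturation and signalling, and of the other cytokines at an unadjusted p under 0.05 in edgeR, of 30, 41, and 14 tested, where 6.87% of all genes were.

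Between 24 and 48 h, 5 receptors rose and 2 fell in the control, of 30 tested, and 9 rose and 2 fell in the Arg groups, of 28 tested. Over all genes, 9.9% rose and 10% fell in the control and 14.3% rose and 14% fell in the Arg groups. CCR3, the eotaxin receptor and a receptor for CCL5 and CCL28, rose by 2.16 in the control (SE 0.609, adjusted p = 0.0280, edgeR) and by 1.65 in the Arg groups (SE 0.544, adjusted p = 0.0282, edgeR), from low levels of 0.279 ± 0.145 CPM (SD, n = 3) in the control at 24 h. IL17RE, a receptor subunit for IL-17C, rose by 1.31 and 0.96 (adjusted p of 0.00304 and 9.94e-05, edgeR), and IL22RA1, a receptor subunit for IL-22, by 0.77 in both (adjusted p of 0.0296 and 0.00764, edgeR). IL7R fell by 0.66 in the control (adjusted p = 0.0224, edgeR). IL4R fell by 0.60 and IL12RB2 by 0.36 in the Arg groups (adjusted p of 0.00105 and 0.00810, edgeR). IL1RL1 had 5, 0, and 1 counts in the control at 48 h, at or near the lower limit of detection. CCR3 lost the call without control A or C at 24 h or control A or B at 48 h, and in the Arg groups without Arg B or C at 24 h or Arg A or B at 48 h (adjusted p up to 0.124 and 0.162, edgeR), and DESeq2 gave it no adjusted p in the control. IL7R lost it without control A or C at 24 h or control A or C at 48 h, IL22RA1 in the control without control A or C at 24 h or control B or C at 48 h, and IL12RB2 without Arg A at 48 h (adjusted p up to 0.116, 0.121, and 0.0515, edgeR).

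In the list of maturation and signalling, 4 genes rose and 3 fell in the control, of 41 tested, and 8 rose and 3 fell in the Arg groups. These counts stand against 9.9% and 10% of all genes in the control and 14.3% and 14% in the Arg groups, so that those in the control are near the share of all genes. JAK1, a kinase that transmits signals of many cytokine receptors, rose by 0.34 and 0.52 (adjusted p of 0.0209 and 2.80e-05, edgeR), and SORL1, a sorting receptor, by 0.49 and 0.59 (adjusted p of 0.0226 and 9.17e-06, edgeR). ADAM10, a protease that sheds CXCL16 from the cell surface, rose by 0.33 in the control and 0.30 in the Arg groups (adjusted p of 0.0168 and 0.0023, edgeR). SOCS1, an inhibitor of JAK signalling, rose by 0.62 in the Arg groups (adjusted p = 0.00553, edgeR). IRAK1, a kinase downstream of the IL-1 receptor, fell by 0.43 and 0.23 (adjusted p of 0.0144 and 0.0203, edgeR), CASP4 by 0.38 in the control (adjusted p = 0.0327, edgeR), and CASP8 by 0.23 in the Arg groups (adjusted p = 0.0347, edgeR). GSDMA, a gasdermin of the epidermis, had 46, 48, and 36 counts in the control at 24 h and 7, 2, and 14 at 48 h, and 62, 40, and 23 counts in the Arg groups at 24 h and 0, 4, and 1 at 48 h, with a call in both treatments. In the control, JAK1, SORL1, and ADAM10 lost the call without control A or C at 24 h (adjusted p up to 0.118, edgeR), IRAK1 without control A at 24 h (0.0854, edgeR), and CASP4 without control A or C at 24 h or control A or B at 48 h (up to 0.150, edgeR). In the Arg groups, CASP8 lost it in 5 of 6 fits with a library left out, all but that without Arg A at 24 h (up to 0.159, edgeR), and IRAK1 without Arg B or C at 24 h or Arg A or B at 48 h (up to 0.0945, edgeR). With every library kept, CASP8 in the Arg groups lost the call with library size only, no filter, or the replicate block (adjusted p of 0.115, 0.0787, and 0.0511, edgeR), IRAK1 in the Arg groups with library size only or all 12 libraries in a single model (0.0770 and 0.0813, edgeR), and CASP4 in the control with library size only (0.0563, edgeR).

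Of the other cytokines, 14 were tested between the times, and 1 rose in the control and 3 rose and 0 fell in the Arg groups (0 lower at an unadjusted p under 0.05 in edgeR and 0 by DESeq2 in the Arg groups). Over all genes, 9.9% rose in the control and 14.3% rose and 14% fell in the Arg groups. TNFSF10, which encodes the death ligand TRAIL, rose by 1.28 in the control (SE 0.406, adjusted p = 0.0453, edgeR) and by 2.30 in the Arg groups (SE 0.409, adjusted p = 0.000314, edgeR). TNFSF9 rose by 0.67 and TNFSF15 by 0.57 in the Arg groups (adjusted p of 0.0365 and 0.0222, edgeR). CMTM6 fell by 0.27 in the control (adjusted p = 0.0357, edgeR). In the Arg groups TNFSF10 passed with any library left out. In the control, TNFSF10 passed only without control B at 24 h (adjusted p up to 0.170 otherwise, edgeR), and CMTM6 failed without control A or C at 24 h or control A or B at 48 h (up to 0.131, edgeR). TNFSF9 passed only without Arg A at 24 h (up to 0.102, edgeR), and TNFSF15 failed without Arg C at 24 h or Arg A or C at 48 h (up to 0.0774, edgeR). TNFSF9 also failed with no filter or the replicate block (adjusted p of 0.0510 and 0.0515, edgeR), and CMTM6 in the control with library size only (0.0868, edgeR).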

How the data were processed

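Raw gene counts of 12 poly(A) RNA libraries of TIGK cells were used. The authors filtered the reads with fastp, aligned them with STAR (GRCh38/hg38), summed them by gene with featureCounts, and deposited these counts as whole numbers, not normalized. The tool versions, annotation release, and strand setting are not given in the sources used here. The deposited table also holds gene positions and exonic lengths, and 0 columns of per-sample values were left unused.

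Libraries were grouped by the treatment and time in their labels. Groups were compared 2 at a time with edgeR 4.0.16 in R 4.3.3 (TMM, filter on low counts, quasi-likelihood test, no block), and the interaction was tested in a model of all 12 libraries. Adjustment (Benjamini–Hochberg) was over all genes tested. The SE of a log2 fold change is its size divided by the square root of F. The code was tested on simulated counts. With 3 libraries against 3, an exact permutation test cannot give a p below 0.1. Beyond the 16 members, at most 3 genes per list, comparison, and direction were named, those with the largest change at an adjusted p under 0.05. STAT3, GSDME, and the change of ADAM10 in the Arg groups are given in addition. A gene of the list of other cytokines is not reported here. Counts of a pair of libraries were compared by chi-square over genes with at least 20 counts in the pair.

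The members and lists were chosen with earlier results of these data known. The letters A, B, and C were not taken to pair the libraries, since in no comparison did all 3 correlations of the deviations exceed 0.1. Between the control groups at 24 and 48 h, all 3 were positive (0.106, 0.225, and 0.069 for A, B, and C). These values do not decide whether those libraries were paired. Promoter windows came from RefSeq and were searched in Python 3.11.15. The alternatives were DESeq2 1.42.0, its size factors in edgeR, library size only, other filters, a single model, a replicate block, and leaving out each library. Leaving out both control B libraries was chosen after seeing the data.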

Additional observations from a re-analysis of the deposited data

How the results depend on the processing

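Of the 13 member changes with an adjusted p under 0.05, none reversed. They include the fall of IL11 at 24 h, a member described through its control libraries. They kept the call in 93 of 96 values under alternatives that kept whole groups or left out both control B libraries, the exceptions being CXCL8 at 24 h with DESeq2, IL36RN in the Arg groups with all 12 libraries in a single model, and CCL5 in the control without both control B libraries. With a library left out, which also leaves fewer samples, they kept it in 49 of 78 values. The 37 changes of other named genes kept the call in 258 of 272 and 142 of 222 values, and none reversed. With a library left out, the count of members higher with Arg was 0 to 1 at 24 h and 0 to 2 at 48 h, and that of members lower 0 to 4 and 0 to 1. Between 24 and 48 h in the control, it was 0 to 4 higher and 0 to 2 lower. The shares of all genes called in the fits with a library left out are not given here. IL1A joined CXCL8 among the members lower at 48 h in the control, 2 in all, with the replicate block, DESeq2, all 12 libraries in a single model, or no filter, and IL1B made 3 without both control B libraries. The interaction called 1 member, IL1A, without a filter and without both control B libraries. The causes of these differences were not tested. The replicate block changed no other count of members. Correlations between libraries of the same letter lay between -0.115 and 0.225, highest for B between the control groups, and no pairing was assumed. Members such as IL11, IL16, and IL17D, with few counts in a library, are limited by depth. Levels below 3 counts per library were taken as below the limit of detection.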
